A study of Mus musculus with 25 samples.

Results

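Perigonadal white adipose tissue (pgWAT) of refed mice was profiled on 1-colour Agilent microarrays, and the 9 genes described here encode the enzymes that admit glucose to glycolysis and set its pace: Hk1 and Hk2 (hexokinases), Gpi1 (glucose-6-phosphate isomerase), Pfkl, Pfkm and Pfkp (the 3 subunits of phosphofructokinase 1), and Pfkfb1, Pfkfb3 and Pfkfb4 (bifunctional enzymes of fructose-2,6-bisphosphate metabolism). They were chosen by gene name, with earlier results of these data known. Every probe that the array files assign to one of these names was taken, with no use of its signal. The 9 names are among 37074 distinct names on the array and are carried by 25 probes, of which 22 are in the authors' normalised table of 40561 probes. Each gene is given by its brightest probe, the one with the highest mean over the 25 arrays, and the other probes are given after it.

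The arrays came from 25 male C57BL6/J mice, 1 array per mouse, in 4 groups, with ages not given in the sources used here. ChREBPbeta_KO (n = 6) lacked ChREBPβ, the shorter isoform of the glucose-sensing transcription factor ChREBP, through a CRISPR/Cas9 deletion in all cells of the exon of Mlxipl from which that isoform starts, and ChREBPbeta_WT (n = 7) were its wild-type littermates; which of the founder lines a mouse came from is not given in the sources used here. ChREBPtotal_KO (n = 5) lacked both ChREBPα and ChREBPβ through a constitutive Mlxipl deletion, and ChREBPtotal_WT (n = 7) were wild-type mice labelled with that line, and whether they were littermates is not given in the sources used here. All mice were fasted for 24 h and then refed for 18 h with access to water holding 20% glucose, so that every group, wild type included, was seen in the carbohydrate-refed state only.

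Hexokinases trap glucose in the cell as glucose-6-phosphate, Gpi1 turns this into fructose-6-phosphate, and phosphofructokinase 1 commits it to glycolysis. Fructose-2,6-bisphosphate, made and broken down by the PFKFB enzymes, is the strongest allosteric activator of phosphofructokinase 1. In white adipocytes Hk2 is the insulin-responsive hexokinase, and glucose taken up through Slc2a4 (GLUT4) yields the metabolites to which ChREBP responds. ChREBP binds carbohydrate response elements, pairs of E-boxes set apart by a short spacer.

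In brief, Hk2 and Pfkl were lower in total ChREBP KO pgWAT than in its wild type on every array, Gpi1 was lower by a smaller amount and Pfkfb3 was higher. Hk2 fell to 34.3% and Pfkl to 54.4% of the wild-type level. No member passed the test in ChREBPβ KO pgWAT. The 2 wild-type groups themselves differed in 5 of the 9 genes, all higher in the total ChREBP line.

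The sequences just before the start sites of the 3 genes that were lower in total ChREBP KO and of the 1 that was higher are shown because ChREBP acts through E-boxes near its target genes. Each line holds the 250 bases before a RefSeq transcript start (GRCm38.p6), 5′ to 3′ on the gene's strand, and capitals mark the E-box CACGTG and the letters CCAAT read on either strand. The windows are chr6:82774455-82774704, minus strand, for Hk2; chr7:34230337-34230586, minus strand, for Gpi1; chr10:78009808-78010057, minus strand, for Pfkl; and chr2:11502091-11502340, minus strand, for one of the 2 starts of Pfkfb3.
Hk2: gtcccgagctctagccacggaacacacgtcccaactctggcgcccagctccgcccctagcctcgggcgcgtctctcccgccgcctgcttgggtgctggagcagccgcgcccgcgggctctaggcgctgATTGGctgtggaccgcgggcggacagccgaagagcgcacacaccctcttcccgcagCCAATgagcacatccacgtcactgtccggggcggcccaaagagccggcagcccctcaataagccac
Gpi1: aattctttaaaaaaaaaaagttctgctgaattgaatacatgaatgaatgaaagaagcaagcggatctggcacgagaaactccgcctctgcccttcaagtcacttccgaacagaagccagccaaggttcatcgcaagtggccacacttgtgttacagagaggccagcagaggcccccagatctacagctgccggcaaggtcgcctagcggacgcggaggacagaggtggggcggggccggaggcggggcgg
Pfkl: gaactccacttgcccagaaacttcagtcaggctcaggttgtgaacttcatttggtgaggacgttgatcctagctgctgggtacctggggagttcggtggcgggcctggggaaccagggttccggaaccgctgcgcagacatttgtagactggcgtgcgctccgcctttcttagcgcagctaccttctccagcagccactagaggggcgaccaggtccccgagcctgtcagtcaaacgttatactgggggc
Pfkfb3: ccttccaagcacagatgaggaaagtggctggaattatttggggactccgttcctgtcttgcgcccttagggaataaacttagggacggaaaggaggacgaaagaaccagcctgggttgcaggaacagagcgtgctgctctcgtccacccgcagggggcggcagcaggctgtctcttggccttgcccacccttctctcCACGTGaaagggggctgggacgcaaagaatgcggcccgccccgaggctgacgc
The E-box CACGTG was in the Pfkfb3 window shown and not in the other Pfkfb3 window, which is not printed. It was in none of the windows of Hk2, Gpi1 and Pfkl. Over the 17 windows that RefSeq gives for the 9 genes, 2 held it, 1 of Pfkfb3 and 1 of the 4 of Pfkm, against 6.02% of all 32851 windows of the same length. The consensus of the carbohydrate response element, searched by its degenerate letters on both strands, was in 0 of the 17 windows and in 0.0974% of all windows. CCAAT on either strand was in 5 of the 17 windows, with 2 matches in that of Hk2, against 33.8% of all windows. These matches describe letters in 250 bases only, and say nothing of binding there or elsewhere.

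The 3 further sequences are those of probes whose 60 bases are laid out over 1198 to 2155 bases of the genome, so that they read spliced transcript, and they are shown because each checks a brightest probe that lies elsewhere in the same gene. They are from the array files and lie at chr7:34987856-34989053, chr13:6581718-6583872 and chr2:11404189-11405602 (mm9, as designed).
Gpi1 A_66_P122536: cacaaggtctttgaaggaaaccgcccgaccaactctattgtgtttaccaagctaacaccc
Pfkp A_51_P378856: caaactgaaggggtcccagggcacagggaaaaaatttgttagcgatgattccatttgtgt
Pfkfb3 A_52_P362917: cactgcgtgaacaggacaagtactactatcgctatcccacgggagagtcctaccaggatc

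All 22 tested member probes were well above background on all 25 arrays and none was saturated. Some were dim all the same. The median raw intensity was 40 for A_55_P2647528 and 77.5 for A_55_P2718999, both of Hk1, and 76 for A_55_P2595372 of Pfkp, over local backgrounds of 18 to 19. Precision is limited by the number of arrays and, for such probes, by their signal. The arrays of a group correlated with each other between 0.970 and 0.997 over all probes, the wash batches each held all 4 groups, and Mlxipl was read by 3 probes as a check on the labels. In total ChREBP KO the brightest differed by -1.77 (SE 0.14), another by -0.66 (SE 0.12, adjusted p = 0.0010) and the last by 0.08 (SE 0.08, adjusted p = 0.695), so that 1 probe of the deleted gene did not pass. In ChREBPβ KO they differed by -0.74, -0.47 and -0.06 and none passed (adjusted p = 0.116, 0.255 and 0.896). The brightest lies at the 3′ end of the gene, outside the exon deleted in the ChREBPβ line, and does not read that deletion itself. The adipocyte list, 9 genes, had a mean log2 level between 16.09 and 16.50 on every array. Markers of liver did not sit evenly: the mean log2 level of 7 liver genes ran from 12.98 to 15.99 in ChREBPβ WT, from 11.65 to 15.62 in ChREBPβ KO, from 8.78 to 13.62 in total ChREBP WT and from 8.63 to 9.52 in total ChREBP KO. One of the 7, Cyp2e1, had means of 16.78 to 18.10 in the 4 groups and is also made by adipocytes. In bulk tissue, fewer cells of a type and less RNA per cell cannot be told apart.

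**Figure D1:**
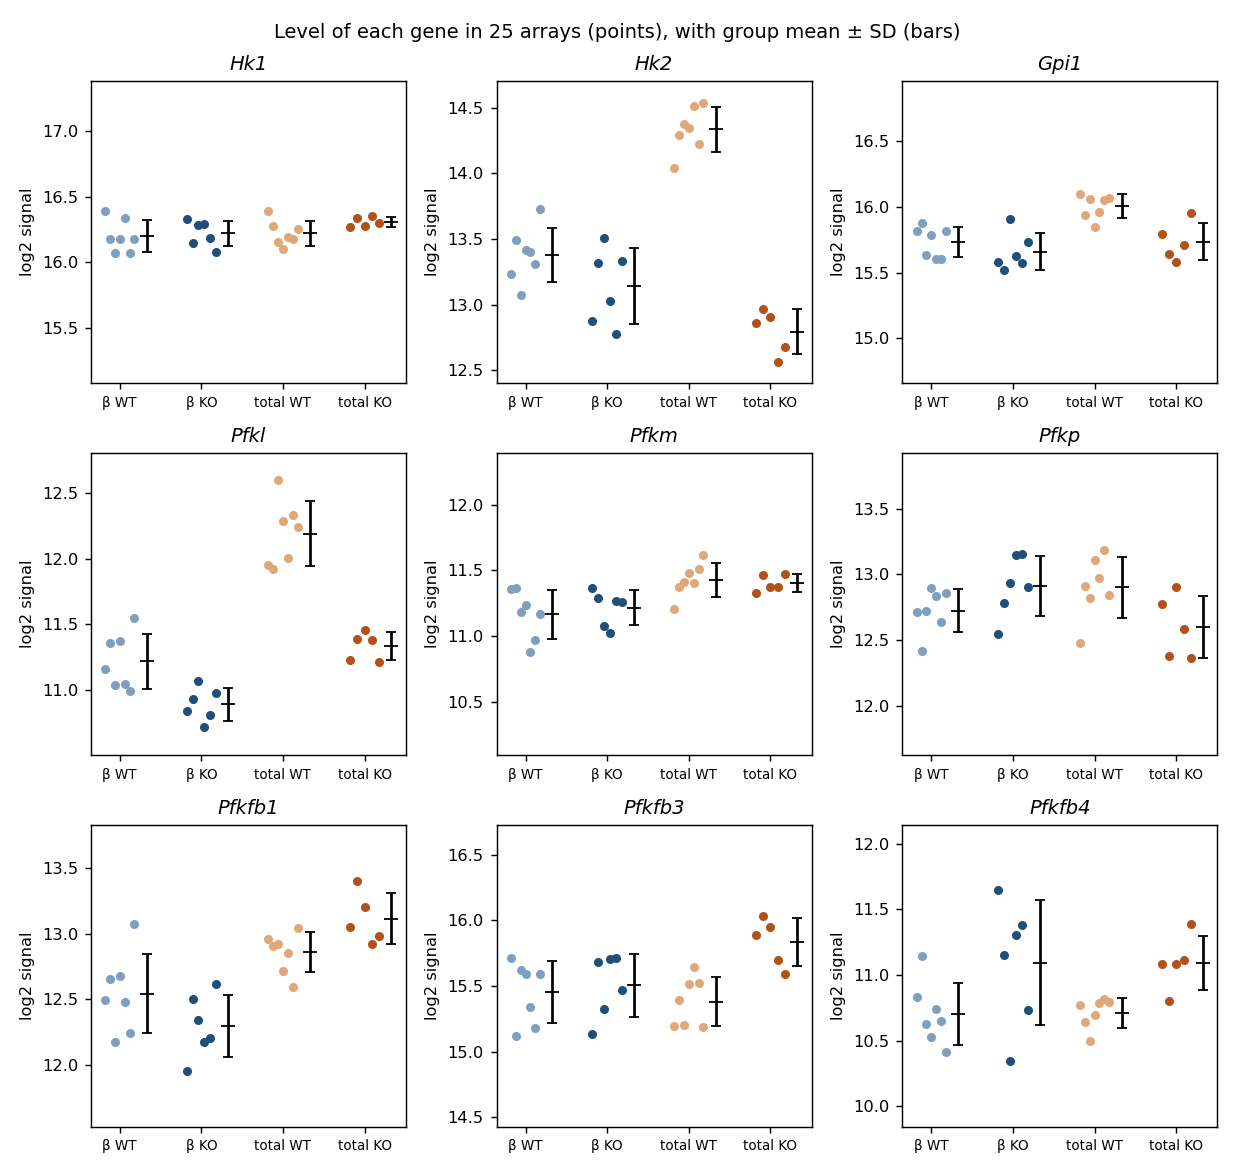
Log2 signal of the brightest probe of each of the 9 genes in the 4 groups, 1 point per array, with bars for the group mean ± SD, and every panel spanning the same height in log2 units. Hk2 and Pfkl separate total ChREBP WT from the other 3 groups, whereas the group means of Hk1 lie between 16.20 and 16.31.

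The comparison of total ChREBP KO with its wild type asks which of these genes depend on the presence of ChREBP in refed fat. Of the 9 genes, 4 passed the test across all 40561 probes (limma, adjusted p under 0.05), 3 lower and 1 higher, where 9.25% of all 26420 genes passed, 3.63% lower and 5.62% higher. The median log2 difference of the 9 was -0.03 beside 0.02 over all genes, and their median size of change 0.29 beside 0.11. For Hk2 and Pfkl, 2 of the 9, the KO and wild-type arrays did not overlap, as for 7.48% of all genes.

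Hk2, the hexokinase that insulin induces in fat and muscle, changed most. Its log2 level ran from 14.04 to 14.54 (median 14.35) in the 7 total ChREBP WT arrays and read 12.86, 12.97, 12.90, 12.57 and 12.68 in the 5 KO arrays. All KO arrays lay more than 1 log2 unit below the lowest wild-type array. The log2 difference was -1.54 (SE 0.13, 95% interval -1.81 to -1.28, adjusted p = 2.9e-08), a level 2.92-fold lower. Within the 4 wash batches it was -1.59, -1.39, -1.69 and -1.43. The array carries a single probe for Hk2, so that no second probe bears on this value.

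Hk1, the housekeeping hexokinase of most tissues, did not pass the test with any of its 4 measured probes. Of these, A_55_P2718999 and A_55_P2647528 were dim and did not follow the brightest within groups (r = -0.22 and -0.37). The brightest had a mean log2 level of 16.22 ± 0.10 (SD) in total ChREBP WT and 16.31 ± 0.04 in KO, a difference of 0.09 (95% interval -0.05 to 0.23). Its value cannot be read as Hk1 alone: it shares a run of 38 bases with an array probe for Rpl17-ps8, a ribosomal protein pseudogene, and the gene whose deviations from the group means were most like its own, of 16192 compared, was Rpl34, a ribosomal protein gene (Pearson r = 0.84 over 25 arrays). It was also the only member probe with a run of 20 bases in common with probes of other names. The next probe, A_55_P2027999, tracked it weakly (r = 0.38) and differed by -0.10 (95% interval -0.30 to 0.09, adjusted p = 0.635). Both intervals leave room for a small change in the signal of their probe. As the brightest cannot be read as Hk1 alone, only the interval of A_55_P2027999 bears on Hk1. On that probe it excludes a fall of the size seen for Hk2.

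Gpi1, the isomerase between the hexokinase and phosphofructokinase steps, was modestly lower. Its log2 level ran from 15.84 to 16.10 (median 16.05) in total ChREBP WT and from 15.58 to 15.95 (median 15.71) in KO, and the groups overlapped. The log2 difference was -0.26 (SE 0.08, adjusted p = 0.0396), a level 83.6% of wild type. The second probe, -0.25 (adjusted p = 0.0362), shares 40 bases with the first and is no separate measurement. The intron-spanning probe printed above gave the larger difference of -0.46 (SE 0.12, adjusted p = 0.0226), with KO arrays at 12.78 to 12.94 and wild-type arrays at 13.01 to 13.65, which did not overlap. The last probe differed by -0.41 (SE 0.15) and did not pass the test (adjusted p = 0.110). All 4 probes were thus lower in KO and 3 of them passed, but the call on the brightest probe was lost in 9 of the 25 fits that leave out 1 array, namely total ChREBP WT replicates 2, 3, 4, 7 and 8 and total ChREBP KO replicates 1, 2, 3 and 4 (adjusted p 0.0646 to 0.126).

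The 3 subunits of phosphofructokinase 1 did not move together. Pfkl, the liver-type subunit, which fat also expresses, ran from 11.92 to 12.60 (median 12.24) in total ChREBP WT and read 11.23, 11.39, 11.46, 11.38 and 11.21 in KO. No KO array reached the lowest wild-type array. The log2 difference was -0.88 (SE 0.11, 95% interval -1.10 to -0.65, adjusted p = 7.7e-06), and within the wash batches it was -1.06, -0.46, -0.95 and -0.87, the smallest from the batch with 1 array in each group. The second Pfkl probe was designed on another Pfkl cDNA and lies about 19.4 kb from the first on the array's genome, less than the 22861 bases that RefSeq gives the gene, but whether it falls in an exon of the RefSeq transcripts was not settled. It fell further, by 1.21 (SE 0.19, adjusted p = 0.00015), from 10.66 to 11.39 in wild type to 9.24 to 10.20 in KO, again without overlap. The 2 probes shared the difference between groups but followed each other only loosely within groups (r = 0.38).

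Pfkm, the muscle-type subunit, was the member with the least difference. It averaged 11.43 ± 0.13 in total ChREBP WT and 11.40 ± 0.07 in KO, and its 95% interval, -0.21 to 0.15, excludes the size of change seen for Pfkl. Pfkp, the platelet-type subunit, averaged 12.90 ± 0.23 and 12.60 ± 0.24, a log2 difference of -0.29 that did not pass the test (adjusted p = 0.209). Of its 5 probes 4 were lower and 1 higher in KO, between -0.29 and 0.02, and none passed. The intron-spanning Pfkp probe gave -0.29, the same to 2 decimals as the brightest.

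Pfkfb3, Pfkfb4 and Pfkfb1 lay on the other side of 0, and of these only Pfkfb3 passed. Pfkfb2, from the list of neighbouring genes, differed by -0.05 (limma adjusted p = 0.839). Pfkfb3, the form with the highest ratio of kinase to phosphatase activity, ran from 15.19 to 15.65 (median 15.39) in total ChREBP WT and read 15.89, 16.04, 15.95, 15.70 and 15.59 in KO. Of the 5 KO arrays 4 lay above all wild-type arrays. The log2 difference was 0.46 (SE 0.13, adjusted p = 0.0293), a level 1.37-fold higher. It was 0.51, 0.56, 0.0042 and 0.70 within the wash batches, and so was absent from the third, which held 1 KO array. The intron-spanning probe differed by 0.43 (SE 0.18) but did not pass the test (adjusted p = 0.172). The call was lost in 7 of the 25 fits that leave out 1 array, total ChREBP WT replicates 2, 3, 4 and 8 and total ChREBP KO replicates 1, 2 and 3 (adjusted p 0.0506 to 0.0938).

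Pfkfb4, which carries both activities and is best known as a hypoxia-inducible form, ran from 10.49 to 10.82 in total ChREBP WT and read 11.08, 10.80, 11.08, 11.11 and 11.38 in KO. One KO array fell just inside the wild-type range and the other 4 were above it. The log2 difference of 0.39 (SE 0.16) did not pass the test (adjusted p = 0.151). It did when only the 2 groups compared were fitted (0.41, adjusted p = 0.0083). Pfkfb1, the form of liver and muscle, differed by 0.26 (SE 0.12, adjusted p = 0.231) on the brightest probe and by 0.34 (SE 0.14, adjusted p = 0.142) on the second, and passed on neither.

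Liver markers move with this comparison as well, 8.78 to 13.62 against 8.63 to 9.52, with 1 of the 7 called lower and 1 higher. With the mean level of that list as a covariate, chosen after the data were seen, Hk2 (-1.57, adjusted p = 4.1e-07) and Pfkl (-0.97, adjusted p = 9.3e-06) differed by as much as without it. Gpi1 (-0.24, adjusted p = 0.142) and Pfkfb3 (0.41, adjusted p = 0.127) kept their direction and lost their call. The KO arrays span only 8.63 to 9.52 of the liver level, and all 4 groups share 1 slope. The fit therefore cannot settle the part of liver signal in these differences. The adipocyte list was higher in KO, 16.42 to 16.48 against 16.10 to 16.37 in wild type, with 2 of 9 genes called higher. The brown adipocyte list had no shared direction: 1 of 6 genes was called higher and 0 lower, while the median difference was -0.13. Adam7, the 1 epididymis marker measured, ran from 6.25 to 15.71 in wild type and from 4.50 to 7.03 in KO (difference -3.09, not called). The part of the adipocyte, brown adipocyte and epididymis markers in the member results was not tested.

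**Figure D2:**
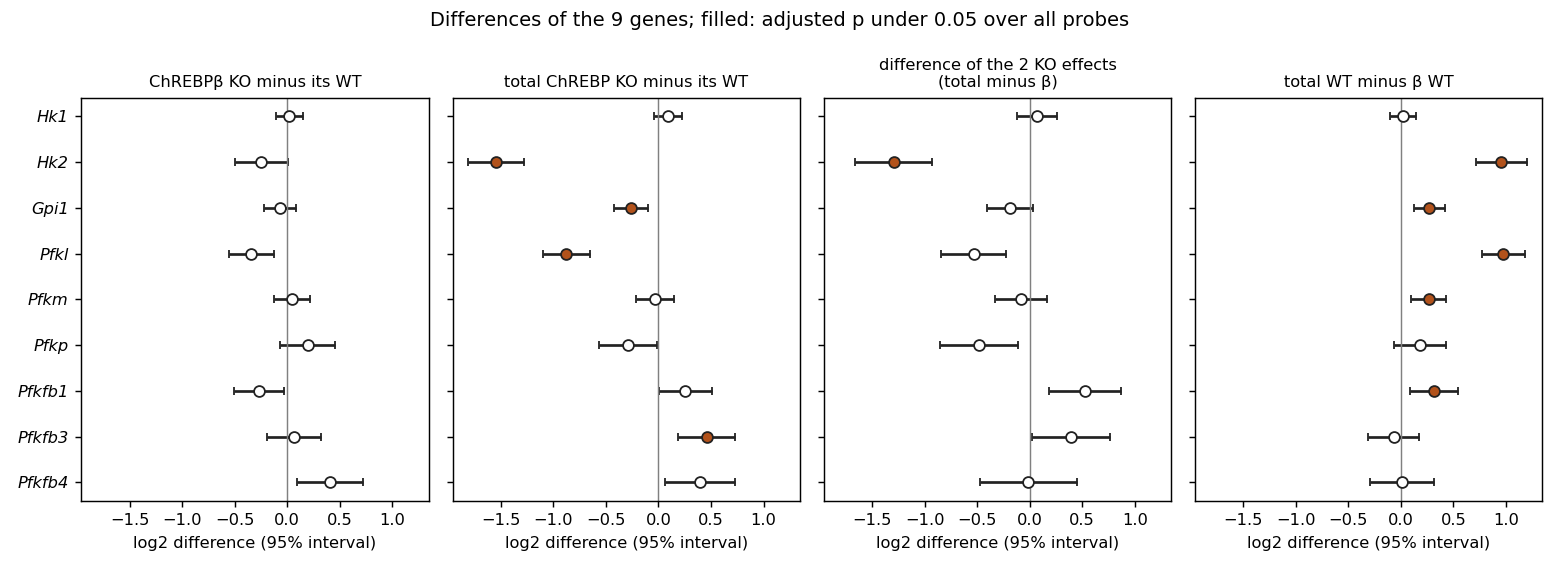
Log2 differences of the 9 genes (brightest probe, points) with 95% intervals (bars) in the 4 comparisons; filled points passed the test over all probes. In the total ChREBP panel Hk2 (-1.54), Pfkl (-0.88) and Gpi1 (-0.26) lie to the left and Pfkfb3 (0.46) to the right, and the ChREBPβ panel has no filled point.

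Deletion of ChREBPβ alone was compared with its own wild-type littermates to see whether the short isoform was needed. None of the 9 genes passed, and 0% of all genes did (limma, with 2497 genes and 3 members at an unadjusted p under 0.05). KO and wild-type arrays overlapped for all 9 genes and failed to do so for 0.0757% of all genes. The median difference of the 9 was 0.02, the same as over all genes, and their median size of change 0.19 beside 0.08.

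Pfkl had the smallest p of the 9 in this line. Its log2 level ran from 11.00 to 11.55 (median 11.16) in ChREBPβ WT and from 10.71 to 11.07 (median 10.89) in KO. The lowest wild-type array was above 5 of the 6 KO arrays. The difference of -0.34 (95% interval -0.56 to -0.13) had an adjusted p of 0.350 over all probes, and the second Pfkl probe differed by -0.17 (95% interval -0.54 to 0.21). Hk2 ran from 13.07 to 13.73 (median 13.40) in ChREBPβ WT and from 12.77 to 13.51 (median 13.17) in KO, with 3 of the 6 KO arrays below every wild-type array. Its difference of -0.25 had a 95% interval of -0.50 to 0.004, so that a fall of the size seen in total ChREBP KO lies outside it.

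The other members at an unadjusted p under 0.05 were Pfkfb4 and Pfkfb1. Pfkfb4 was spread widely in ChREBPβ KO, from 10.34 to 11.65 (SD 0.48, n = 6), beside 10.41 to 11.14 in ChREBPβ WT, so that the KO arrays spanned the whole wild-type range. Its log2 difference was 0.41 (95% interval 0.09 to 0.72, adjusted p = 0.426). Pfkfb1 ran from 12.17 to 13.07 in ChREBPβ WT and from 11.96 to 12.62 in KO, a difference of -0.27 (95% interval -0.50 to -0.03, adjusted p = 0.494). The differences of Hk1 (0.02), Gpi1 (-0.07), Pfkm (0.05), Pfkp (0.19) and Pfkfb3 (0.06) all had intervals that include 0, with bounds between -0.23 and 0.45.

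The difference between the 2 knockout effects was tested directly, total minus β, each against its own wild type. It passed for Hk2 alone of the 9 genes, where 3.47% of all genes passed, 2.13% with a negative and 1.35% with a positive difference. For Hk2 it was -1.30 (SE 0.18, 95% interval -1.66 to -0.93, adjusted p = 7.7e-05). For Pfkl the brightest probe gave -0.53 (SE 0.15, adjusted p = 0.0521), just outside the threshold, and the second probe -1.05 (SE 0.26, adjusted p = 0.0261), inside it. Pfkl therefore depends on the probe chosen, and its pass when the probes of a gene were averaged (-0.79, adjusted p = 0.0135) draws on the second probe too.

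For no other member was the larger effect in one line shown to differ from that in the other. Pfkfb1 came nearest, with effects of -0.27 and 0.26 and a difference of 0.52 (SE 0.16, adjusted p = 0.100), matched by 0.59 on its second probe (adjusted p = 0.104). Pfkp differed by -0.48 (adjusted p = 0.196) and Pfkfb3 by 0.40 (adjusted p = 0.341). Pfkfb4 had nearly equal effects in the 2 lines, 0.41 and 0.39, with a wide interval for their difference, -0.47 to 0.45.

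The 2 wild-type groups carry no deletion and were refed alike, so that their comparison measures what separates the lines apart from the deletions. Mlxipl itself was not level between them: its brightest probe was 0.91 higher in total ChREBP WT (SE 0.12, limma adjusted p = 4.0e-05). The other probes differed by 0.50 (SE 0.11, limma adjusted p = 0.0030) and -0.07 (SE 0.07, limma adjusted p = 0.547). The part of the Mlxipl level in the member differences was not tested. Total ChREBP WT was higher than ChREBPβ WT in 5 of the 9 genes and lower in none, where 22% of all genes passed, 13.5% higher and 8.51% lower. Hk2 and Pfkl, 2 of the 9, had arrays that did not overlap between the wild types, as had 5.38% of all genes. These values use the same 7 total ChREBP WT arrays as the knockout comparison, so that an array high by chance would enter both with opposite sign.

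Hk2 was 0.96 (SE 0.12, adjusted p = 1.5e-05) and Pfkl 0.97 (SE 0.10, adjusted p = 2.2e-06) higher in total ChREBP WT, with within-batch values of 0.73 to 1.12 for Hk2 and 0.56 to 1.24 for Pfkl. The second Pfkl probe differed by 1.55 (SE 0.17). Gpi1 was 0.27 higher (adjusted p = 0.0084) and all 4 of its probes passed, between 0.27 and 0.68. Pfkm, which passed in neither knockout comparison, was 0.26 higher (adjusted p = 0.0203), and Pfkfb1 0.31 higher (adjusted p = 0.0422) with its second probe at 0.54 (adjusted p = 0.0038). Hk1, Pfkp, Pfkfb3 and Pfkfb4 did not pass, and their differences on the brightest probe lay between -0.07 and 0.18.

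Set side by side, the levels put total ChREBP WT at the top for Hk2, followed by ChREBPβ WT, ChREBPβ KO and total ChREBP KO, with means of 14.33, 13.38, 13.14 and 12.80. The middle 2 overlap, and so do the last 2, whereas all 5 total ChREBP KO arrays lay below the range of ChREBPβ WT. For Pfkl the order was total ChREBP WT, total ChREBP KO, ChREBPβ WT and ChREBPβ KO, with means of 12.19, 11.33, 11.22 and 10.89. ChREBPβ WT and KO overlap here too, and all 5 total ChREBP KO arrays lay within the range of ChREBPβ WT. Without ChREBP, Hk2 thus lay below and Pfkl, on its brightest probe, level with the wild type of the other line. The second Pfkl probe averaged 9.81 in total ChREBP KO (9.24 to 10.20) and 9.48 in ChREBPβ WT (8.97 to 9.85). For Gpi1, 3 of the 5 total ChREBP KO arrays lay within the range of ChREBPβ WT, 1 below and 1 above. For Pfkfb3, 3 of the 5 lay above it and 2 within.

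Liver markers differed strongly between the wild types, with 6 of the 7 called lower in total ChREBP WT and a median log2 difference of -4.72 over the liver list. Of the 15 genes of glucose uptake, phosphorylation and upper glycolysis, 4 were called lower and 2 higher between the wild types, and of the 12 of lower glycolysis 2 lower and 7 higher. Those called lower include G6pc (-3.20), Fbp1 (-4.50) and Pklr (-1.25), named after their values were seen, which liver expresses highly. Among the lists other than the liver list, 3 of 4 kidney genes and 1 of 7 lymphocyte genes were called lower. Called higher were 3 of 6 skeletal muscle, 3 of 6 brown adipocyte, 2 of 3 erythrocyte genes and the 1 epididymis gene (3.74). Of the 9 adipocyte genes 1 was lower and 2 higher. The liver list served as a covariate in a further fit. The mean of that list, 12.98 to 15.99 in ChREBPβ WT and 8.78 to 13.62 in total ChREBP WT, largely separates the wild types. A fit with it as a covariate therefore cannot tell liver signal and line apart. In that fit 2 of the 9 genes kept their call, Hk2 (0.89, adjusted p = 0.0094) and Pfkl (0.76, adjusted p = 0.0063). Gpi1 (0.32, adjusted p = 0.102), Pfkfb1 (0.28, adjusted p = 0.383) and Pfkm (0.02, adjusted p = 0.934) lost it, and Pfkm lost its difference as well. The part of the other marker lists in these results was not tested, and line and breeding history cannot be told apart.

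**Figure D3:**
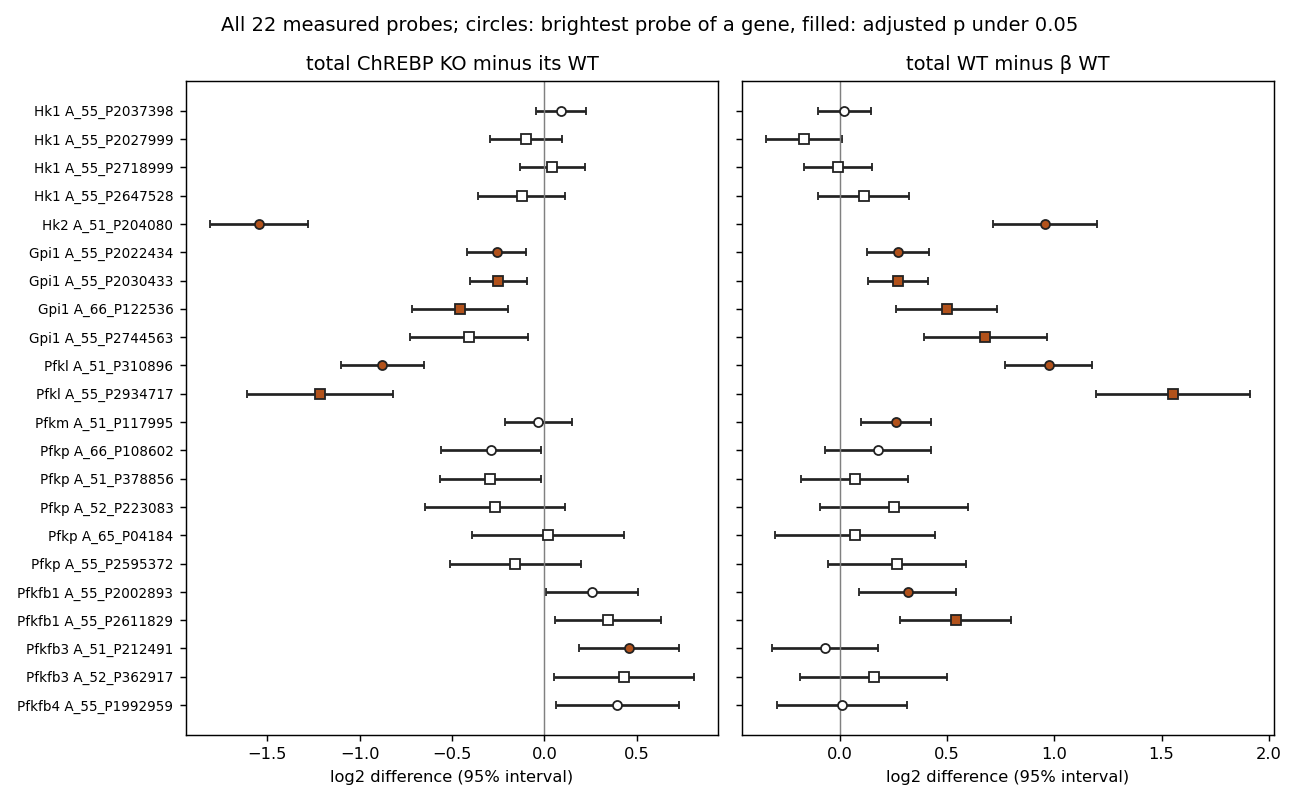
Log2 differences with 95% intervals of all 22 measured probes of the 9 genes, total ChREBP KO minus its wild type at left and total ChREBP WT minus ChREBPβ WT at right; circles are the brightest probe of each gene, squares its other probes, and filled symbols passed the test. Probes of Gpi1 and of Pfkl fall on the same side within each panel, while Hk1 probes scatter around 0.

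Of the 25 member probes 3 are not in the normalised table, and their scanner signals say little more than that they were dim. The one for Hk1 and the one for Pfkfb4 were well above background on 0 of the 25 arrays. The one for Pfkl was so on 4 arrays, of which 3 were from the ChREBPβ line and 1 was a total ChREBP WT array. A run of 45 of its 60 bases is in the Pfkl window printed above, whereas the array design places it between the other 2 Pfkl probes, and which transcript it reads was not settled.

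The neighbouring steps of glucose handling give the 9 genes their setting. A list of 15 genes of glucose uptake, phosphorylation and the opposing reactions had 1 gene lower and 2 higher in total ChREBP KO, with a median of -0.11. The one that fell was Slc2a4, the insulin-regulated glucose transporter (-1.40, SE 0.13, adjusted p = 1.3e-07), and those that rose were Pgm2, a phosphoglucomutase (0.29, adjusted p = 0.0140), and G6pc3, the ubiquitous glucose-6-phosphatase (0.28, adjusted p = 0.0348). A list of 12 genes of lower glycolysis and lactate formation had 4 lower and 1 higher, with a median of -0.27. Eno1, the enolase of most tissues (-1.37, SE 0.08), Pkm, pyruvate kinase (-1.04, SE 0.08), Ldha, lactate dehydrogenase A (-0.53, SE 0.05), and Gapdh (-0.43, SE 0.06) fell, and Tpi1, triose phosphate isomerase, was the 1 that rose (0.39, SE 0.08). In ChREBPβ KO 0 of the 15 and 0 of the 12 passed.

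The fall of Hk2 in total ChREBP KO thus stood beside that of Slc2a4, the transporter just before it, and of Eno1, with differences of -1.54, -1.40 and -1.37. Levels in the 4 groups followed the same order for Slc2a4 as for Hk2, with means of 16.25 in total ChREBP WT, 15.30 in ChREBPβ WT, 15.20 in ChREBPβ KO and 14.86 in total ChREBP KO. The difference of the 2 knockout effects was -1.29 for Slc2a4 (SE 0.18, adjusted p = 8.6e-05) beside -1.30 for Hk2.

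Within groups, the arrays also differed, and deviations of each array from its group mean show which genes moved together apart from genotype. Over the 25 arrays, the gene most like Hk2 among 16192 was Mlxipl itself, the gene that encodes ChREBP (r = 0.85). For Gpi1 it was Gbe1, the glycogen branching enzyme (r = 0.83), for Pfkl Atf7 (r = 0.83), for Pfkm Pccb, a subunit of propionyl-CoA carboxylase (r = 0.84), for Pfkp Fam20c (r = 0.84), for Pfkfb1 Apbb3 (r = 0.82), for Pfkfb3 Emp1 (r = 0.78) and for Pfkfb4 S100b (r = 0.84). Each is the highest of 16192 values from the same arrays, which share wash batch, tissue makeup and normalisation, and is given as a description. Those arrays include both knockouts, in which Mlxipl is deleted in whole or in part. Its r with Hk2 in wild types alone was not taken.

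Among the 9 genes themselves the 36 pairs ran from -0.59 to 0.72 with a median of 0.05. Hk2 followed Pfkfb1 (r = 0.72) and Pfkl (r = 0.52) and ran against Pfkfb4 (r = -0.59). Pfkp followed Pfkfb3 (r = 0.63). Hk2 and Pfkfb1 thus varied together from mouse to mouse, although in total ChREBP KO Hk2 fell and Pfkfb1 had a difference of 0.26. The genes did not vary as a single block, as the plot of their correlations shows.

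**Figure D4:**
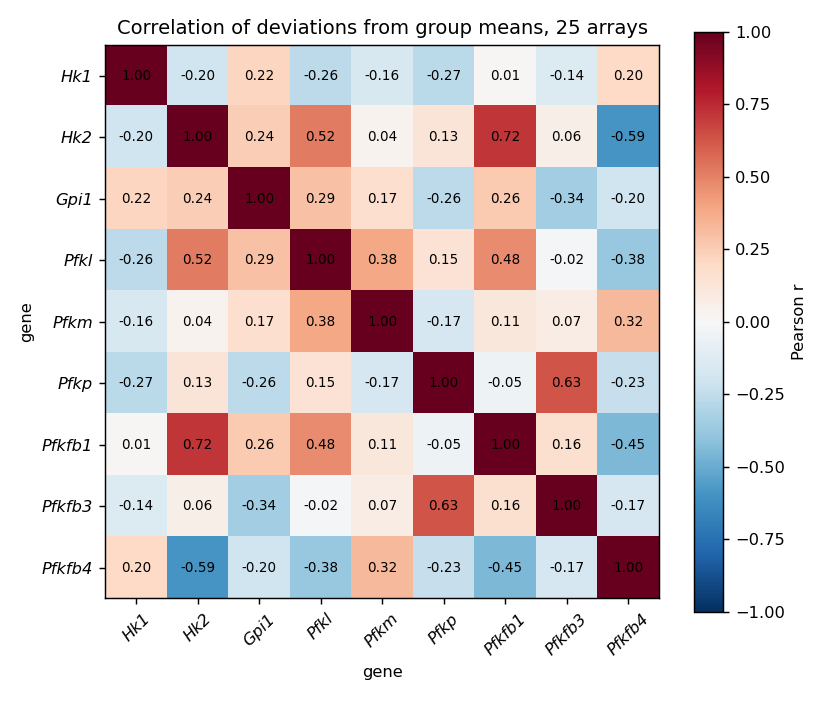
Pearson correlations between the 9 genes of each array's deviation from its group mean, over 25 arrays (brightest probe; red positive, blue negative, and 1 on the diagonal by construction). Off the diagonal, Hk2 against Pfkfb1 (0.72) is the highest value and Hk2 against Pfkfb4 (-0.59) the lowest.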

How the data were processed

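RNA of 25 pgWAT samples was hybridised, 1 per array, and scanner intensities were extracted with Agilent Feature Extraction 10.10.1.1 per the labels. The deposited table holds log2 values that the authors quantile-normalised without background subtraction after a spot filter; each column correlated with the log2 median intensity of its own deposited scanner file at 0.9998 or higher, which fixes the scale, and columns have medians near 7.96. The member genes, lists and tests were chosen with earlier results of these data known. Groups and wash batch came from the labels. Each probe was fitted with limma 3.58.1 (R 4.3.3), group plus wash batch over all 25 arrays, with empirical Bayes moderation and Benjamini-Hochberg adjustment over all 40561 probes; adjusted p under 0.05 was called. A gene count uses the brightest probe per name. The text names every member and the most alike gene of each. From each neighbour list it names up to 4 called genes with the largest total ChREBP difference. Tpi1, Pfkfb2 and the liver genes were added after their values were seen. Some genes of the lists are not reported here by name. P-values measure the spread between these mice. Alternatives were other background, scaling, filter, weight, trend, block, probe and sample choices, and a liver-marker covariate. The code was tested on simulated data. Promoters are RefSeq's (GRCm38.p6); probe positions are the array's (mm9). Depth does not apply to arrays, whose number limits precision.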

Additional observations from a re-analysis of the deposited data

Results flagged for a closer look

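The difference between the 2 knockout effects on Hk2 stands out by its own test. It was -1.296 on the log2 scale, total minus β (SE 0.18, limma adjusted p = 7.7e-05). All 5 total ChREBP KO arrays lay below every array of their wild type, and 3 of 6 ChREBPβ KO arrays below every array of theirs. The ChREBPβ difference itself was not called (-0.25, limma adjusted p = 0.562), and total ChREBP WT was 0.96 above ChREBPβ WT. Of the 36 sets of arrays examined, 9 genes in 4 groups, 0 held an array that lay far from the rest of its group by Dixon's criterion, which chance alone would meet in about 1 set in 20.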

How the results depend on the processing

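The calls of Hk2 and Pfkl in the total ChREBP line and between the wild types, and that of Hk2 for the difference of effects, were kept under every alternative run, and 0 of the 9 genes passed in the ChREBPβ line under any. The number called in the total ChREBP line was 4 in the main fit and 2 with the liver covariate. It was 2 to 4 with 1 array left out (2 without total ChREBP WT replicate 2, 3, 4 or 8 or total ChREBP KO replicate 1, 2 or 3), as Gpi1 and Pfkfb3 lost their calls. Under the other alternatives the number followed the losses and gains given next. Gpi1 also lost its call with only the 2 groups compared (adjusted p = 0.0513), and Pfkfb3 with the processed signal (0.106) or the mean over probes (0.0679). Pfkfb4 gained a call with array quality weights (0.0429) and with only the 2 groups compared (0.0083). For the difference of effects the count of 1 became 2, by Pfkl, with an intensity trend, array quality weights, only probes well above background on all arrays, the mean over probes or the liver covariate, and was 1 to 2 with 1 array left out (2 without ChREBPβ WT replicate 2 or 8 or total ChREBP WT replicate 2 or 3). Between the wild types 5 became 3 with only the 2 groups compared, 2 with the liver covariate, and 3 to 5 with 1 array left out (3 without ChREBPβ WT replicate 6 or 7). Pfkfb1 lost its call there without the wash term (0.0640) and in 10 of the 25 such fits (without ChREBPβ WT replicate 2, 3, 6 or 7 or total ChREBP WT replicate 2, 3, 4, 5, 6 or 8), and Hk1 gained one with the processed signal (0.22, adjusted p = 0.0029).

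Only uncalled differences near 0 changed sign, and the cause was not tested. Hk1 did in the total ChREBP line with the processed signal (-0.0797) and the mean over probes (-0.0226), for the difference of effects with raw intensities (-0.0115), the processed signal (-0.112), normexp (-0.0325) and the mean over probes (-0.0681), and between wild types with that mean (-0.0121). Pfkfb3 between wild types turned to 0.0830 and 0.0425 with the processed signal and the mean over probes. Pfkfb4 turned to 7.6e-06 for the difference of effects with the processed signal, and between wild types to -0.0117 with quality weights and -0.245 with the liver covariate, which also turned Pfkm in the ChREBPβ line to -0.0153. With 1 array left out the ranges that crossed 0 were, in the ChREBPβ line, -0.0064 to 0.0532 for Hk1, -0.0019 to 0.0979 for Pfkm and -0.0119 to 0.140 for Pfkfb3, in the total ChREBP line -0.0658 to 0.0060 for Pfkm, for the difference of effects -0.16 to 0.14 for Pfkfb4, and between wild types -0.0088 to 0.0545 for Hk1 and -0.0398 to 0.0856 for Pfkfb4.

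Whether mice with the same replicate number were paired is not given in the sources used here. The deviations of same-numbered arrays correlated from -0.43 to 0.39, which cannot settle it. A replicate block left the counts at 0, 4, 1 and 5 of 9. Over all 40561 probes that block lowered the number called for the difference of effects from 1302 to 710 (1.75%). A fit of only the 2 groups compared cannot give the difference of effects.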
